A study of Mus musculus with 36 samples.

Results

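Checkpoint receptors are surface proteins, many of which restrain lymphocytes once their ligands are bound. The genes of 7 receptors grouped under this name were followed across mouse natural killer (NK) cells: Lag3, Pdcd1 (which encodes PD-1), Havcr2 (TIM-3), Ctla4, Lilrb4a, Cd200r1 and Cd160. Whether each of these receptors restrains NK cells was not tested. The genes were taken by symbol from each of 4 deposited tables of TPM (a level scaled for gene length and to a fixed library total). Lilrb4a had a row under each of 2 identifiers, so the 7 genes gave 8 rows, out of 32940 genes in the table of sorted splenic subsets and 56923 in each of the other tables. The study comprised 36 libraries in 12 groups of 3.

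The first table held mature splenic NK cells (CD27-CD11b+) of WT mice (B2m+/+ C57BL/6) and of B2m knockout mice, here KO. B2m encodes the light chain of MHC class I, and Ly49C, Ly49I and NKG2A are inhibitory NK receptors for MHC class I. Cells of each genotype were sorted as TP (positive for all of Ly49C, Ly49I and NKG2A), SP (positive for Ly49I alone) or TN (negative for all of them). The second table held NK cells purified from WT splenocytes exposed for 22 h to ionomycin, which carries calcium across membranes, or to its vehicle. In the third, WT splenic NK cells spent 48 h in medium or on plates coated with antibodies, either against NKp46 plus NKG2D (the NKG2D pair) or against NKp46 plus DNAM-1 (the DNAM-1 pair), all of which are activating receptors. The fourth held CD27-CD11b+ NK cells from tumours that grew for 10 days under the skin of WT mice injected with MC38 colon carcinoma cells lacking B2m. The B2m knockout was not restricted to NK cells, per the labels, and the doses of ionomycin and antibodies are not given in the sources used here.

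LAG-3 is a relative of CD4 that binds MHC class II. PD-1 and CTLA-4 belong to the CD28 family, with PD-L1 and PD-L2 as ligands of the former and CD80 and CD86 as ligands of the latter. TIM-3 binds galectin-9 and CEACAM1, CD200R1 binds CD200, and CD160 is a membrane-anchored receptor for HVEM (Tnfrsf14) that is a common NK cell marker in mice. Lilrb4a encodes gp49B, an inhibitory immunoglobulin-like receptor of NK and myeloid cells whose tail recruits phosphatases. In T cells, several of these genes are switched on by calcium signals through NFAT, AP-1 and NR4A transcription factors.

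The table of RefSeq promoters (build GRCm38.p6) held 5 start sites for 4 of the 7 genes. The 250 bases before the start are shown for Havcr2 and Ctla4, which lay above their medium range in nearly all antibody libraries, and for both starts of Cd160, the most abundant of these receptors in sorted subsets. They are read 5′ to 3′ on the gene's strand. Havcr2 lies on the plus strand at chr11:46454681-46454930, Ctla4 on the plus strand at chr1:60908775-60909024, and the Cd160 starts on the minus strand at chr3:96829352-96829601 and chr3:96814522-96814771. Capitals mark matches on either strand to the NFAT core GGAAA, the AP-1 site TGANTCA (N is any base) or the NR4A site AAAGGTCA. No match overlapped one of another kind in these windows.
Havcr2: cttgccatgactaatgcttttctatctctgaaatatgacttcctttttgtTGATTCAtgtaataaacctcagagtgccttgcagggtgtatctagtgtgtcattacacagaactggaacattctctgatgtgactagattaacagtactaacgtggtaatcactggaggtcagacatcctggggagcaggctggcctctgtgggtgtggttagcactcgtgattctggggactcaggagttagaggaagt
Ctla4: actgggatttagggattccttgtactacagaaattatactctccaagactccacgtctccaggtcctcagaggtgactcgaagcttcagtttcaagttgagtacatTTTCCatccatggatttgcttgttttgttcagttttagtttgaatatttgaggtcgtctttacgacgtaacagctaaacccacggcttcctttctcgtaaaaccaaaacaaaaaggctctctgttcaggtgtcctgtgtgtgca
Cd160 first start: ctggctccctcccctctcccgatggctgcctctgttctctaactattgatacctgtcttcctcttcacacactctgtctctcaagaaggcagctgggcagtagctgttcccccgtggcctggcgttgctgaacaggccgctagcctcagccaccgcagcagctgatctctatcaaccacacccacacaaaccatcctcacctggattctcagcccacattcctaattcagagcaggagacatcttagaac
Cd160 second start: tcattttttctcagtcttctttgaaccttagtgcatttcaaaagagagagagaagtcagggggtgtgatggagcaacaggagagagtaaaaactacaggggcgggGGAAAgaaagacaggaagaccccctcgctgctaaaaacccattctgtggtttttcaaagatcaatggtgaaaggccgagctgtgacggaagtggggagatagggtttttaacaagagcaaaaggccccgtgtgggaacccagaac
The Havcr2 window held 1 AP-1 match, the Ctla4 window 1 NFAT core, the second Cd160 window 1 NFAT core, and the first Cd160 window none of the motifs. The bases just after the Havcr2 start were found in no transcript of that gene in the GENCODE M21 set, unlike those of the other starts. The window of Pdcd1 held 2 NFAT cores, and no window of these genes held the NR4A site. Over 32851 promoter windows of the same length, 55.6% held the NFAT core, 6.7% the AP-1 site and 1.3% the NR4A site. The matches describe these letters only.

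Depth is unknown for TPM, so precision comes from the spread between libraries within groups. Limma estimated that spread for each gene over all groups of a table. In the subset and antibody tables, each SE therefore also draws on libraries outside the comparison. B2m ran from 2915 to 3420 TPM in the 9 WT subset libraries and from 73.9 to 128 TPM in the 9 KO libraries, as labelled. Summed levels of 8 NK cell markers ran from 15514 to 18952 TPM in the subsets, from 3744 to 11896 TPM in the ionomycin table, from 9926 to 11202 TPM in the antibody table and from 8815 to 9558 TPM in tumours. Each group gave replicates called biological by the labels. Column names of the subset and antibody tables read as 1 mouse per replicate number across the groups of a table, which the sample titles do not state, and fits with that number as a block are given where they change a call. The p-values measure the spread between these samples. A gene was called when limma gave an adjusted p (Benjamini-Hochberg, over all genes tested in a comparison) under 0.05. Statements that groups did not overlap describe the values only. An exact permutation test of 3 against 3 libraries cannot go below p = 0.1, and the share of all genes without overlap is not given. Log2 changes are on the log2(TPM + 1) scale, which understates changes of low genes.

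In freshly sorted splenic subsets, Cd160 was the most abundant of these receptors and Pdcd1, Ctla4 and Havcr2 were at or near 0 TPM. Cd160 was lower in KO than in WT cells of the TP and SP subsets, with mean TPM ratios of 0.668 and 0.678, at adjusted p values just above the threshold. Lag3 lay at a few TPM in every subset. None of the receptors was called between subsets of a genotype.

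Cd160 in WT cells was 76.5, 77.2 and 69.8 TPM in TP, 53.1, 71.1 and 70.5 TPM in SP, and 68.4, 76.3 and 80.7 TPM in TN. In KO cells it was 54.7, 51.5 and 43.1 TPM in TP, 44.3, 47.5 and 40.2 TPM in SP, and 54.8, 62.0 and 72.5 TPM in TN. KO libraries lay below WT libraries without overlap in TP and in SP, and the genotypes overlapped in TN. The KO minus WT log2 difference was -0.58 ± 0.14 (SE, n = 3 against 3) in TP, with limma's adjusted p = 0.0544. In SP it was -0.54 ± 0.14 (SE, n = 3 against 3), with limma's adjusted p = 0.0833. In TN it was -0.25 ± 0.14 (SE, n = 3 against 3), with limma's adjusted p = 0.569. The TP difference passed the threshold under median-of-ratios scaling (limma adjusted p = 0.0287) and under quantile normalization (limma adjusted p = 0.0276). The SP difference passed it without WT SP replicate 1, the lowest of the WT SP libraries (limma adjusted p = 0.0298). Within KO cells, Cd160 in TN exceeded SP by 0.50 and TP by 0.34 on the log2 scale, with limma's adjusted p = 0.734 and 0.708. The tests of whether subset differences themselves depended on genotype gave 0.32 (95% interval -0.10 to 0.75) for TN against TP and 0.04 (-0.39 to 0.47) for SP against TP. The KO TP libraries also held more transcripts of other cells than WT TP, with 8 myeloid markers summing to 44.0 to 187 TPM against 11.8 to 14.6 TPM and 5 B-cell markers to 17.9 to 27.4 TPM against 7.63 to 9.00 TPM. Their part in the TP difference was not tested. In bulk samples, fewer cells that carry a transcript and less of it per cell cannot be told apart.

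Lag3 in WT cells was 3.18, 4.99 and 4.41 TPM in TP, 1.62, 0.14 and 3.97 TPM in SP, and 2.00, 1.02 and 3.97 TPM in TN. In KO cells it was 5.80, 4.98 and 5.35 TPM in TP, 5.10, 8.49 and 1.92 TPM in SP, and 7.74, 4.55 and 2.05 TPM in TN. The mean was higher in KO than in WT cells of each subset, while single libraries overlapped in all of the subsets. The KO minus WT log2 difference in SP was 1.17 ± 0.55 (SE, n = 3 against 3), with limma's adjusted p = 0.427.

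Lilrb4a is one of a pair of neighbouring, similar genes with Lilrb4b. Of the 50-base words of its coding transcripts in GENCODE M21, 9.7% to 35.3% also occurred in transcripts of Lilrb4b, so the authors' counting could have divided reads between Lilrb4a and Lilrb4b. The identifier ENSMUSG00000062593 is absent from GENCODE M21, so sharing between the Lilrb4a rows was not examined. The row ENSMUSG00000112148 ran from 3.80 to 17.9 TPM over the 18 subset libraries with a median of 8.58 TPM. It was 4.82, 5.25 and 4.39 TPM in KO SP and 15.8, 15.8 and 5.97 TPM in KO TP. Every KO SP library lay below every KO TP library, with a log2 difference of -1.11 ± 0.43 (SE, n = 3 against 3) and limma's adjusted p = 1. The myeloid markers, whose cells can also express Lilrb4a, summed to 0.32 to 5.47 TPM in KO SP against 44.0 to 187 TPM in KO TP, and their part in this difference was not tested. The other row, ENSMUSG00000062593, was listed at 0 in 9 of 18 libraries and reached 5.46 TPM. Summed over both rows, Lilrb4a was 13.9 ± 6.70 TPM (SD, n = 3) in the TP cells of WT mice, 10.0 ± 2.34 TPM in SP and 10.8 ± 3.99 TPM in TN. The KO sums were 14.4 ± 2.92 TPM (SD, n = 3) in TP, 5.13 ± 0.27 TPM in SP and 11.7 ± 0.51 TPM in TN.

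Cd200r1 did not reach the mean of 1 TPM needed for the test. It was 0.15, 0.22 and 3.48 TPM in WT TP, 0.63, 1.99 and 0 TPM in WT SP, and 0 in all 3 WT TN libraries. In KO cells it was 1.80, 1.49 and 4.51 TPM in TP, 0.48, 0.13 and 1.14 TPM in SP, and 0, 0 and 0.26 TPM in TN. All KO TP libraries lay above all KO SP and KO TN libraries. With no filter on low values, the KO TN minus KO TP log2 difference was -1.64 ± 0.50 (SE, n = 3 against 3), with limma's adjusted p = 0.394. In the same KO TP libraries, 5 B-cell markers summed to 17.9 to 27.4 TPM and 8 myeloid markers to 44.0 to 187 TPM, against at most 9.09 and 14.6 TPM in all other subset libraries. The sum of 3 markers of type 1 innate lymphoid cells (ILC1; Il7r, Cxcr6 and Itga1) was 11.9 to 19.9 TPM there and at most 10.9 TPM in the others. The part of these cells in the Cd200r1 values was not tested.

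Havcr2 was above 0 in 9 of 18 subset libraries and reached 1.09 TPM. Ctla4 was listed at 0 in 17 of 18, with 0.23 TPM in the other, and Pdcd1 also in 17 of 18, with 0.24 TPM in the other. Both single values came from KO TP libraries.

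Of the 8 rows, 4 passed the filter in the subset table (Lag3, Cd160 and both Lilrb4a rows), which gave 44 tests over 11 comparisons. Limma called none of the 44, and 6 had an unadjusted p under 0.05, a threshold passed by 2.77% to 12.5% of all genes in these comparisons. Among all 12018 genes tested, 1.31% were called for TN against TP, 0.191% for SP against TP and 0.383% for TN against SP in WT cells. The shares in KO cells were 0.524%, 0.2% and 0.0416% for the same pairs. KO against WT called 1.59% of genes in TP, 1.35% in SP and 0.716% in TN, and the interactions with genotype called 0.025% for TN against TP and 0.0166% for SP against TP. With shares this low, 0 of 4 is near what all genes showed.

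**Figure D1:**
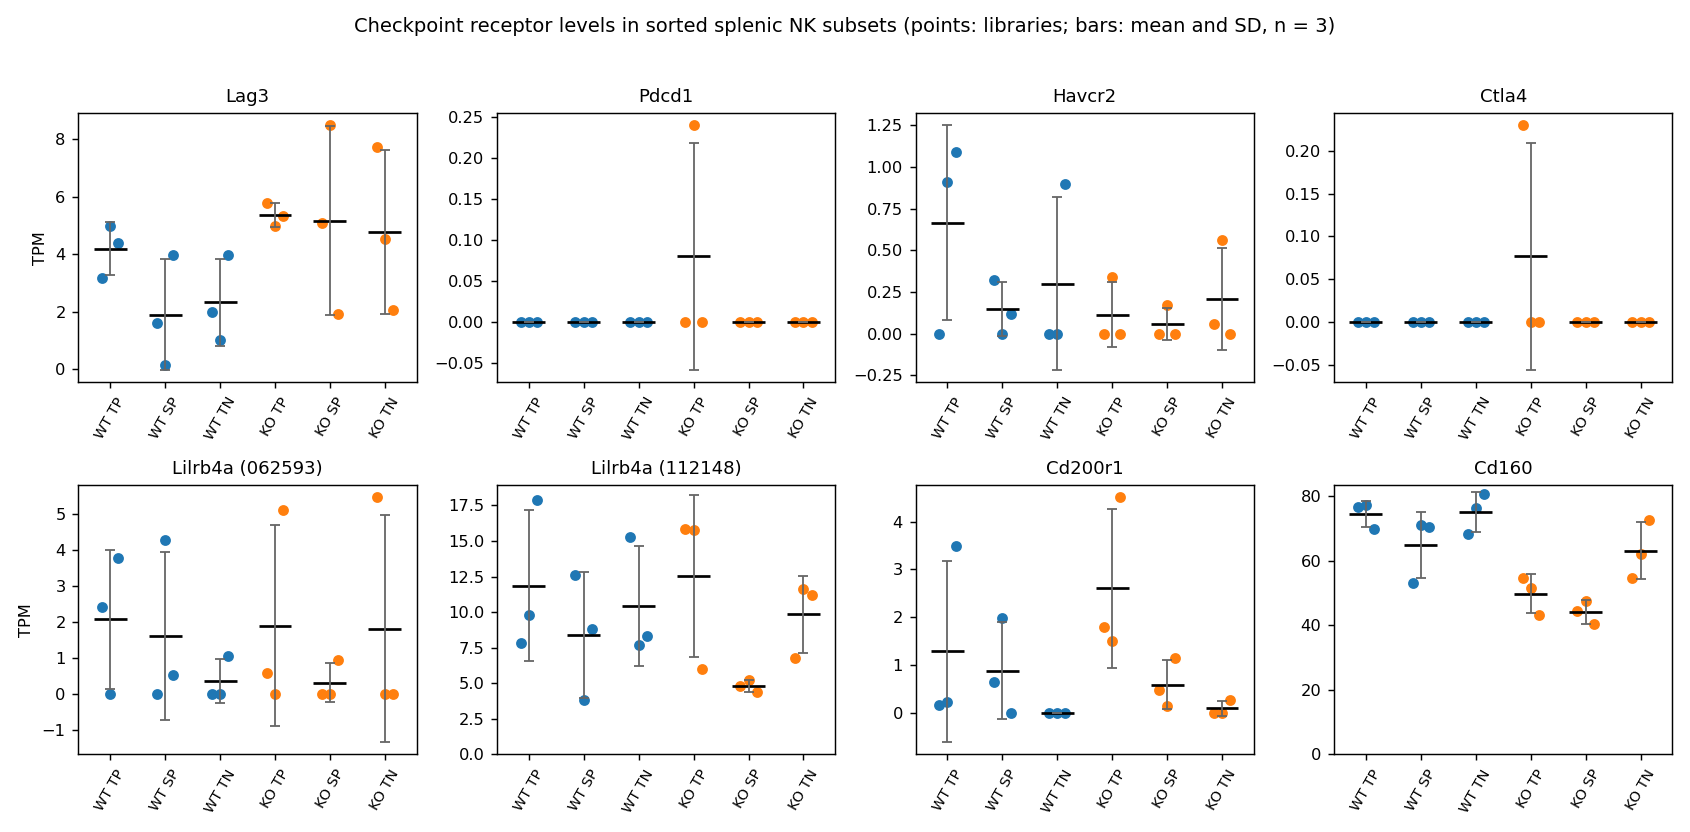
TPM of the 8 receptor rows (vertical axes) in the 6 groups of sorted splenic subsets, with a point for each library and bars for the mean and SD of 3 libraries. Cd160 lies between 40.2 and 80.7 TPM, with the KO TP and KO SP points below their WT counterparts, while Pdcd1 and Ctla4 lie at 0 in 17 of 18 libraries each; SD bars that reach below 0 show spread only.

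**Figure D2:**
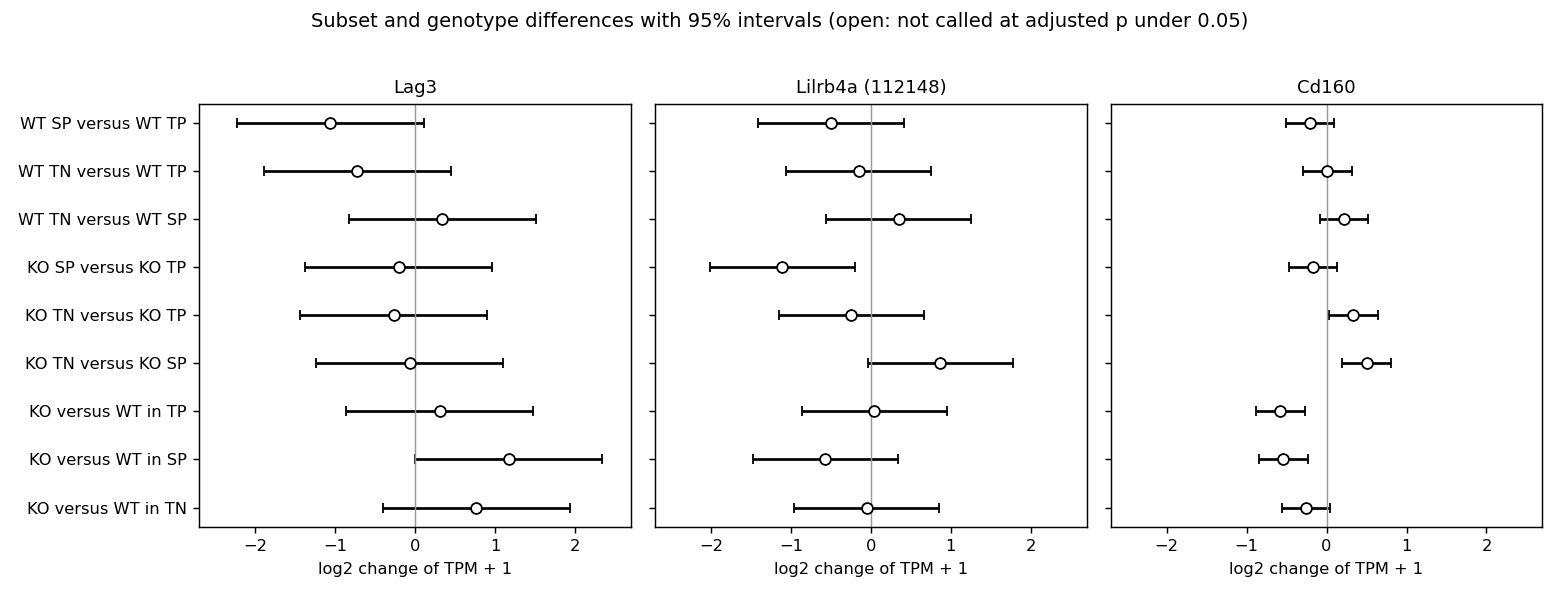
Log2 differences of TPM + 1 (horizontal axes) for Lag3, Lilrb4a (ENSMUSG00000112148) and Cd160 in 9 comparisons of subsets and genotypes, with 95% intervals from limma. All points are open because no difference was called, and the Cd160 intervals of KO against WT in TP and SP lie below 0.

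Some other inhibitory receptors did differ between the genotypes. Klrg1, an inhibitory receptor for cadherins, was lower in KO than in WT cells by log2 -1.61 in TP, -1.55 in SP and -0.63 in TN (limma adjusted p = 2.25e-06, 4e-06 and 0.045). Of 14 settings of the fit, the reported one included, the Klrg1 call was made in all in TP and SP and in 6 in TN. Tigit, an inhibitory receptor for CD155, was higher in KO than in WT cells by log2 2.62 in TP and 1.82 in SP (limma adjusted p = 0.00025 and 0.00932), called in 13 and 10 of the 14 settings. Their list of 10 inhibitory receptors had 7 tested, of which 1 rose and 1 fell in TP and in SP. Of all genes tested, 1.59% were called in TP and 1.35% in SP. Ptpn6, which encodes the phosphatase SHP-1 that inhibitory receptor tails recruit, rose in KO by log2 1.23 in TP and 1.15 in SP (limma adjusted p = 0.000239 and 0.000616). Ptpn6 was the only gene called among 11 signalling genes in either subset, against the same shares of all genes.

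After 22 h with ionomycin, Lag3 and Cd160 rose in NK cells. Havcr2 was higher in all 3 treated libraries, passing the threshold with replicate number as a block but not in the reported fit. The labels here do not say that vehicle and treated libraries of a number share a mouse. Lag3 averaged 17.3 times and Cd160 29.7 times its vehicle level in TPM. The Cd160 ratio rests on low vehicle values, from 0 to 7.96 TPM. The vehicle libraries were uneven, and leaving out replicate 1, 2 or 3 of vehicle gave ratios of 27.0, 17.7 and 12.5 for Lag3 and of 19.8, 39.7 and 39.3 for Cd160. Ctla4 and Lilrb4a were high and very uneven in vehicle cells and moderate after ionomycin. Pdcd1 was detected in every ionomycin library at a few TPM.

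Lag3 was 38.4, 23.3 and 5.31 TPM with vehicle and 556, 292 and 310 TPM with ionomycin. Every ionomycin library lay above every vehicle library. The log2 change was 4.35 ± 0.61 (SE, n = 3 against 3), with limma's adjusted p = 0.0099. Cd160 was 0, 7.96 and 7.88 TPM with vehicle and 137, 119 and 214 TPM with ionomycin, again without overlap. Its log2 change was 5.15 ± 0.79 (SE, n = 3 against 3), with limma's adjusted p = 0.0136. Of the 8 rows, Pdcd1 and Cd200r1 passed the filter on low values only through the treated libraries and are given by their levels. Of the others, these 2 were called, against 2.91% of 14372 genes. Both calls were lost when any ionomycin library, or vehicle replicate 2, was left out, with limma's adjusted p from 0.127 to 0.158 for Lag3 and from 0.117 to 0.198 for Cd160, and the Cd160 call was also lost without vehicle replicate 3 (limma adjusted p = 0.0607). Both ended with no variance trend in the fit (limma adjusted p = 0.0552 for Lag3 and 0.0607 for Cd160), and the Cd160 call ended with a pseudocount of 0.1 (limma adjusted p = 0.0744) or no filter on low values (limma adjusted p = 0.0611).

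Havcr2 was 26.2, 2.50 and 0 TPM with vehicle and 112, 82.2 and 70.1 TPM with ionomycin. The lowest treated library lay above the highest vehicle library. The log2 change was 4.26 ± 1.01 (SE, n = 3 against 3), with limma's adjusted p = 0.0658. With replicate number as a block, a pairing that the labels of these libraries do not state, the adjusted p from limma was 0.0285. Without vehicle replicate 1, the highest of the vehicle libraries, the change was 5.54, with limma's adjusted p = 0.0332. Pdcd1 was 1.47, 0 and 0 TPM with vehicle and 1.68, 1.94 and 6.37 TPM with ionomycin, and 1 vehicle value lay just below the lowest treated one.

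Ctla4 was 227, 49.0 and 5.01 TPM with vehicle and 34.5, 8.45 and 16.6 TPM with ionomycin. The vehicle libraries spanned the treated ones on both sides. The log2 change was -1.18 ± 1.14 (SE, n = 3 against 3), with limma's adjusted p = 0.692, and it was 0.06 without vehicle replicate 1. Lilrb4a ENSMUSG00000112148 was 1623, 772 and 50.1 TPM with vehicle and 353, 172 and 151 TPM with ionomycin. Its log2 change was -0.93 ± 1.08 (SE, n = 3 against 3), with limma's adjusted p = 0.752, and it was 0.08 without vehicle replicate 1. The row ENSMUSG00000062593 was 711, 153 and 18.0 TPM with vehicle and 104, 0 and 40.1 TPM with ionomycin, a log2 change of -2.97 ± 1.75 (SE, n = 3 against 3) with limma's adjusted p = 0.495. Cd200r1 was 1.08, 0 and 0 TPM with vehicle and 6.16, 0 and 4.27 TPM with ionomycin, and the groups overlapped.

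The vehicle libraries differed among themselves in the same order for several receptors. Lag3, Havcr2, Ctla4 and both Lilrb4a rows were highest in vehicle replicate 1 and lowest in replicate 3. Lilrb4b, the close copy of Lilrb4a, was 1861, 938 and 112 TPM in these libraries, in that order too. Cd160 went the other way, at 0 in replicate 1. Vehicle replicate 3 also held myeloid transcripts that the other vehicle libraries lacked, with S100a8 at 72.2 TPM and S100a9 at 150 TPM against 0 in both others. Ionomycin replicate 3 held S100a8 at 46.9 TPM and S100a9 at 57.3 TPM, against 0 in the other treated libraries. With both of these libraries left out, the log2 change was 3.71 for Lag3 (limma adjusted p = 0.171) and 5.42 for Cd160 (limma adjusted p = 0.234), so neither was called.

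Markers of NK and other cells also differed between these groups. The summed level of 8 NK markers was 11518, 11896 and 6892 TPM with vehicle and 4861, 4257 and 3744 TPM with ionomycin. Gzma, the most abundant of these markers with vehicle, was 6271, 5833 and 3222 TPM there and 1344, 867 and 1017 TPM with ionomycin. Eomes went the other way, at 160, 322 and 431 TPM with vehicle and 587, 801 and 710 TPM with ionomycin. The other NK markers had lower means with ionomycin. The summed level of 7 T-cell markers was 4.41, 7.87 and 10.5 TPM with vehicle and 25.7, 14.7 and 12.9 TPM with ionomycin, and Cd4, Cd8a and Cd8b1 were at 0 in all 6 libraries. The 3 ILC1 markers summed to 101, 67.2 and 83.1 TPM with vehicle and to 53.3, 28.5 and 28.9 TPM with ionomycin. Among them, Cxcr6 was 89.8, 52.5 and 20.5 TPM in vehicle, in the same order as Lag3, Havcr2, Ctla4 and both Lilrb4a rows, and Il7r was 9.19, 11.4 and 59.1 TPM, in the opposite order. The part of these shifts in the receptor values was not tested.

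Among genes around the receptors, none of the 8 tested ligand genes was called with ionomycin by limma, and 3 had an unadjusted p under 0.05. Relatives of the receptors gave 0 called of 5 tested by limma, with 2 at an unadjusted p under 0.05. The share of all tested genes at that unadjusted p was 15.1%. Of 10 other inhibitory receptors, 2 rose and 2 fell, against 2.91% of all tested genes called. Among these 10, Cd300a and Cd5 passed the filter only through the treated libraries, as did Cd200 among the ligands. Tigit by log2 3.25 and Vsir (VISTA) by 1.92 were higher, and Klrg1 by -4.23 and Cd244a (2B4) by -2.45 were lower (limma adjusted p = 0.00739, 0.0045, 0.0197 and 0.0045). Dok2, an adaptor used by CD200R1, changed by log2 -1.46 (limma adjusted p = 0.0255) and was the only one called of 11 signalling genes. Of 13 regulators tested, 3 were called higher and none lower, but Irf4 had entered the test only through the treated libraries. Nr4a2 and Nr4a3, nuclear receptors induced by calcium signals, rose by log2 6.26 and 5.13 (limma adjusted p = 0.00515 and 7.21e-05). Irf4, a transcription factor of activated lymphocytes, was listed at 0 in all 3 vehicle libraries and was 38.3, 16.6 and 25.1 TPM with ionomycin. Of the 14 settings, the ionomycin call was made in 13 for Nr4a3, in 9 each for Nr4a2, Vsir and Cd244a, in 7 for Tigit, in 6 for Klrg1 and in 5 for Dok2.

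With plate-bound antibodies for 48 h, Lag3 rose several-fold over medium, to similar levels with both pairs. Havcr2 and Ctla4 were higher in nearly all antibody libraries but did not pass the threshold in the reported fit. With replicate number as a block, Havcr2 passed it with the DNAM-1 pair. Cd160, the larger Lilrb4a row and Cd200r1 overlapped the medium libraries. Pdcd1 was at 0 in medium and at most 1.12 TPM with antibodies.

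These groups follow the column of the table that each sample's description names. The sample titles give another group for 6 of the 9 libraries. By column, Lag3 was 9.11, 8.65 and 9.72 TPM in medium, 60.2, 59.1 and 97.6 TPM with the NKG2D pair, and 57.0, 53.0 and 82.6 TPM with the DNAM-1 pair. Every antibody library lay at least 53.0 TPM and every medium library at most 9.72 TPM. By title, each of the groups would hold 1 of the 3 low libraries and 2 of the 6 high ones. The Lag3 log2 change was 2.81 ± 0.24 (SE, n = 3 against 3) with the NKG2D pair, with limma's adjusted p = 0.000596, and 2.66 ± 0.24 (SE, n = 3 against 3) with the DNAM-1 pair, with limma's adjusted p = 0.00101. Grouped by title, these values were -0.066 and 0.43, with limma's adjusted p = 1 and 0.904.

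Lag3 was the 1 called row of 7 tested with each pair, against 0.431% of 13689 genes with the NKG2D pair and 0.782% with the DNAM-1 pair. Between the pairs, none of the 7 rows was called by limma and none had an unadjusted p under 0.05, against 0.0146% of genes called and 1.22% at that unadjusted p. For Lag3 the difference of the DNAM-1 pair minus the NKG2D pair was -0.16 on the log2 scale, with a 95% interval from -0.69 to 0.37. Both comparisons with medium share the same medium libraries.

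Havcr2 was 0.87, 1.38 and 3.21 TPM in medium, 3.11, 10.1 and 20.4 TPM with the NKG2D pair, and 10.7, 10.4 and 18.4 TPM with the DNAM-1 pair. All libraries of the DNAM-1 pair lay above medium, and 1 library of the NKG2D pair fell within the medium range. The log2 change was 1.90 ± 0.58 (SE, n = 3 against 3) and 2.37 ± 0.58 (SE, n = 3 against 3), with limma's adjusted p = 0.185 and 0.0993. With replicate number as a block, limma's adjusted p was 0.0563 and 0.0202, so that the DNAM-1 pair was then called.

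Ctla4 was 0, 3.42 and 0.96 TPM in medium, 8.13, 9.60 and 18.4 TPM with the NKG2D pair, and 6.38, 5.49 and 12.6 TPM with the DNAM-1 pair. All antibody libraries lay above all medium libraries. The log2 change was 2.59 ± 0.57 (SE, n = 3 against 3) and 2.08 ± 0.57 (SE, n = 3 against 3), with limma's adjusted p = 0.0933 and 0.121. Without medium replicate 2, the highest of the medium libraries, the change with the NKG2D pair was 3.14 and was called (limma adjusted p = 0.0445). Foxp3, the factor of regulatory T cells that carry much CTLA-4, was 1.38, 5.23 and 0 TPM in medium and at most 2.26 TPM with antibodies, and Cd4 was at 0 in all 9 libraries. The part of such cells in the Ctla4 values was not tested.

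Lilrb4a ENSMUSG00000062593 was 40.8, 2.39 and 39.5 TPM in medium, 47.6, 48.3 and 138 TPM with the NKG2D pair, and 49.5, 40.1 and 116 TPM with the DNAM-1 pair. Its log2 change was 1.95 ± 0.88 and 1.80 ± 0.88 (SE, n = 3 against 3), with limma's adjusted p = 0.334 and 0.319. The row ENSMUSG00000112148 was 203, 201 and 284 TPM in medium, 142, 175 and 276 TPM with the NKG2D pair, and 215, 163 and 280 TPM with the DNAM-1 pair. Its log2 change was -0.25 and -0.08, with limma's adjusted p = 0.681 and 0.91. Summed over both rows, Lilrb4a was 257 ± 61.3 TPM in medium, 276 ± 121 TPM with the NKG2D pair and 288 ± 98.8 TPM with the DNAM-1 pair (SD, n = 3 each).

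Cd160 was 61.9, 54.0 and 66.4 TPM in medium, 43.5, 55.5 and 57.3 TPM with the NKG2D pair, and 64.1, 57.3 and 65.4 TPM with the DNAM-1 pair. The groups overlapped. The log2 change was -0.22 (95% interval -0.57 to 0.12) and 0.04 (-0.30 to 0.38), with limma's adjusted p = 0.519 and 0.932. Cd200r1 was 2.19, 0 and 6.57 TPM in medium, 1.64, 3.93 and 2.25 TPM with the NKG2D pair, and 1.66, 2.46 and 1.61 TPM with the DNAM-1 pair. Its log2 changes were 0.27 and -0.0025, with limma's adjusted p = 0.881 and 1. Pdcd1 was 0 in all 3 medium libraries, 0, 0 and 1.12 TPM with the NKG2D pair, and 0.26, 0 and 0.84 TPM with the DNAM-1 pair, and did not pass the filter.

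The summed NK markers ran from 9926 to 10851 TPM in medium and from 9951 to 11202 TPM with antibodies. Members of this sum moved in opposite directions. Mean Gzma was 4883 TPM in medium, 5704 TPM with the NKG2D pair and 5595 TPM with the DNAM-1 pair. Mean Klrb1c was 1372 TPM in medium, 963 TPM with the NKG2D pair and 905 TPM with the DNAM-1 pair. The 7 T-cell markers summed to 32.9 to 73.0 TPM in medium and 20.1 to 39.7 TPM with antibodies. Replicate 3 of both antibody pairs had the highest Lag3, Havcr2, Ctla4 and Lilrb4a ENSMUSG00000062593 values of their groups. The ILC1 markers stood apart in the same libraries, with sums of 43.9 TPM in the NKG2D pair and 38.7 TPM in the DNAM-1 pair against 13.1 to 17.3 TPM in the other antibody libraries and 37.8 to 52.0 TPM in medium. Cxcr6 was 36.7 and 30.5 TPM in these libraries, against 5.58 to 6.39 TPM in the other antibody libraries and 7.97 to 13.5 TPM in medium. Il7r was 24.5 to 38.1 TPM in medium and 4.71 to 9.15 TPM with antibodies. The part of the cells behind these markers in the receptor values was not tested.

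**Figure D3:**
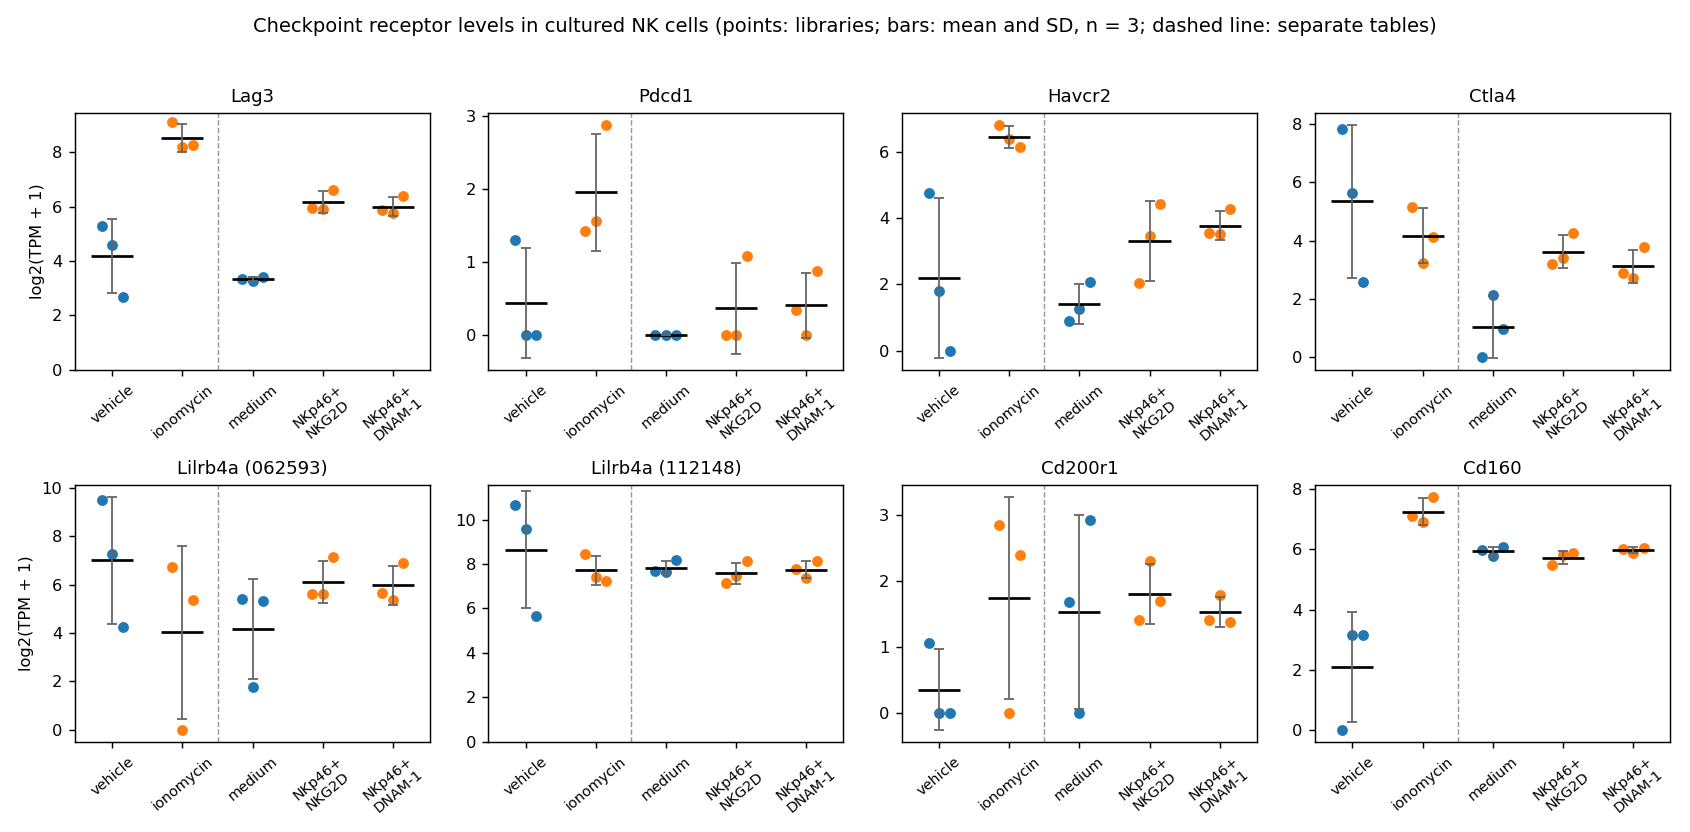
Levels of the 8 receptor rows as log2(TPM + 1) (vertical axes) in vehicle and ionomycin cultures, left of the dashed line, and in medium and antibody cultures, right of it, with a point for each library and bars for the mean and SD of 3 libraries. Lag3 lies higher in all treated than in all control libraries of each table, Cd160 does so with ionomycin, and the vehicle points of Ctla4 and Lilrb4a spread widely.

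**Figure D4:**
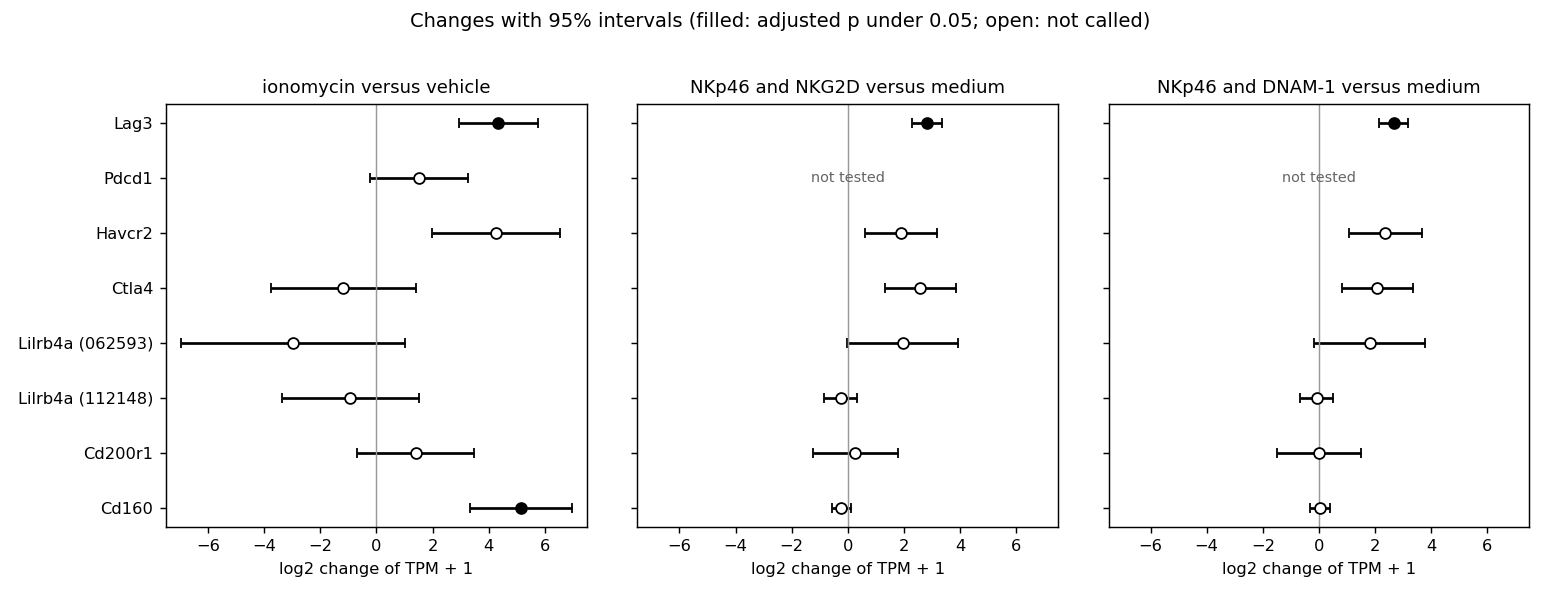
Log2 changes of TPM + 1 (horizontal axes) with 95% intervals from limma for the receptor rows in 3 comparisons, with filled points for called rows. Lag3 is filled in each panel and Cd160 with ionomycin, Pdcd1 was not tested in the antibody table, and Pdcd1 and Cd200r1 passed the filter with ionomycin only through the treated libraries.

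Of 13 regulators tested with antibodies, 4 fell with each pair and none rose. With the NKG2D pair, the 3 with the largest change were Nr4a1, Egr2 and Egr3, at log2 -2.63, -2.59 and -2.14 (limma adjusted p = 0.000596, 0.000735 and 0.00074). With the DNAM-1 pair the same genes stood at -2.84, -2.58 and -2.02 (limma adjusted p = 0.000519, 0.00119 and 0.00133). These are early-response transcription factors of antigen and NK receptor signals. In medium, Nr4a1 was 709, 576 and 500 TPM, and with antibodies it was at most 113 TPM. Grouped by title, none of these calls was made. None of the 7 ligand genes, the 4 relatives, the 8 other inhibitory receptors or the 11 signalling genes tested was called by limma with either pair. At an unadjusted p under 0.05 there were 1, 1, 4 and 0 with the NKG2D pair, and 2, 0, 3 and 1 with the DNAM-1 pair, against 15.1% and 18% of all genes. Among the ligands, Cd86 passed the filter only through the antibody libraries. The median log2 change of the 7 receptor rows tested was 1.90 and 1.80, against -0.04 over all genes with each pair. These medians are single rows that were not called, Havcr2 with the NKG2D pair and Lilrb4a ENSMUSG00000062593 with the DNAM-1 pair. They do not describe Cd160, Cd200r1 and the other Lilrb4a row, which overlapped medium. Lilrb4a counts as 2 rows, and the receptors were chosen with earlier results of these data known.

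In NK cells from tumours, Lilrb4a was the most abundant of these receptors and Pdcd1 was at 0 in all 3 libraries. Lilrb4a ENSMUSG00000112148 was 244, 200 and 182 TPM, and ENSMUSG00000062593 was 87.0, 70.3 and 87.4 TPM. Cd160 followed at 16.2, 13.3 and 16.6 TPM, and Lag3 at 3.09, 4.24 and 3.39 TPM, and these 4 rows did not overlap one another. Ctla4 was 0, 5.02 and 1.39 TPM, Havcr2 1.38, 0.18 and 0 TPM, and Cd200r1 0, 1.69 and 0 TPM, and these overlapped one another. The myeloid markers, whose cells can also express Lilrb4a, summed to 41.2, 25.5 and 10.0 TPM in these libraries, in the same order as the larger Lilrb4a row, and their part in it was not tested. The tumour table had no control group, so these levels stand without a comparison. Its column headers include B2MKO and SP, terms left unexplained by the sample titles. B2m was 5196, 3929 and 4536 TPM in the tumour libraries, and 73.9 to 128 TPM in the KO libraries of the subset table.

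**Figure D5:**
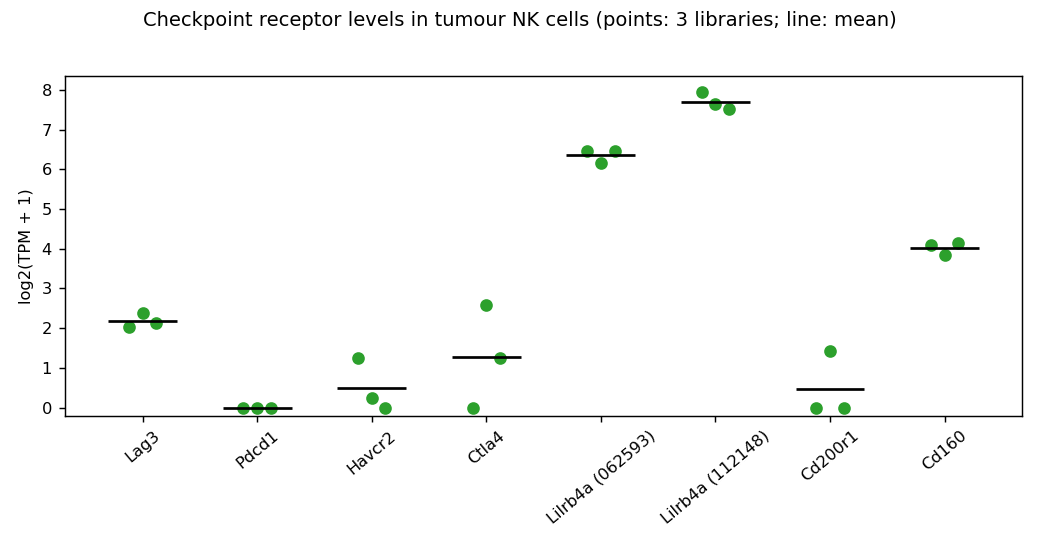
Levels of the 8 receptor rows as log2(TPM + 1) (vertical axis) in the 3 tumour libraries (points), with a line at the mean. Both Lilrb4a rows lie highest, from 70.3 to 244 TPM, and Pdcd1 lies at 0.

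Across the 36 libraries, Pdcd1 was listed at 0 in 28 and never exceeded 6.37 TPM. Ctla4 was listed at 0 in 19, and its highest value was 227 TPM in a vehicle library. Lag3 was above 0 in every library, with a median of 5.33 TPM and a highest value of 556 TPM with ionomycin. Cd160 was at 0 in a single library, a vehicle one, and its median was 57.3 TPM. The other vehicle libraries held at most 7.96 TPM of it, below every library of the other tables. These levels come from separate tables and were not tested against each other.

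Genes whose log2 levels followed a receptor most closely were ranked by Pearson's r within a table, as a description over libraries that share its groups. Over the 9 antibody libraries, Lag3 was closest to Dynll1 and Fdps (both r = 0.986) and Arsb (r = 0.97). Havcr2 was closest to Prim1 (r = 0.98), Cenpa and Kpna2 (both r = 0.977), and Ctla4 to Lacc1 (r = 0.983), Azin1 (r = 0.98) and Irf8 (r = 0.971). Over the 18 subset libraries, Cd160 was closest to Ddx19b (r = 0.812), Actg1 and Colgalt1 (both r = 0.787), and Lag3 to Dut (r = 0.814), Nr2c2ap (r = 0.788) and Prmt9 (r = 0.783).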

How the data were processed

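RNA of sorted mouse NK cells was sequenced after capture with an mRNA library kit, per the labels' protocols. The authors deposited TPM values in 4 tables; STAR, RSEM and the build GRCm39 are named in the submitters' processing notes, without versions or roles. TPM keep no depth. Tables were analysed separately. Genes whose mean over a table reached 1 TPM were tested as log2(TPM + 1) with limma 3.58.1 in R 4.3.3 (a mean per group over all libraries of a table, moderated variances with a trend, two-sided), with Benjamini-Hochberg adjustment over all genes of each of 15 comparisons. With 3 against 3 libraries an exact permutation test cannot go below p = 0.1. The fit was tested on simulated data.

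The receptors and gene lists (11 ligands, 11 relatives, 10 other inhibitory receptors, 11 signalling genes, 14 regulators and cell type markers) were chosen with earlier results of these data known. All 7 receptors are named, and of each list at most the 3 called genes with the largest change in a direction. The 3 most alike genes were taken by Pearson's r, predicted genes left out. Antibody groups follow the column names. Column names of the subset and antibody tables join the replicate number to the genotype, which reads as 1 mouse per number. Same-numbered libraries deviated together only weakly (mean correlation 0.0006 in WT subsets, 0.0203 in KO subsets, 0.062 with ionomycin and 0.0639 with antibodies). Differently numbered libraries averaged -0.0002, -0.0101, -0.031 and -0.032 in the same order, and the highest same-numbered value was 0.169 with antibodies. The reported fit has no block, and blocked values are given where they change a call. Adding the block raised the genes called by limma from 59 to 239 with the NKG2D pair and from 107 to 528 with the DNAM-1 pair. The antibody counts thus depend on this choice. Promoters were not used for Lag3, Lilrb4a and Cd200r1.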

Additional observations from a re-analysis of the deposited data

How the results depend on the processing

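Of 653 alternative values of the counts and changes reported here, 592 kept direction and side of the threshold (for counts, stayed within 1.5 times). Counts of called receptor rows moved as follows. KO against WT in TP went from 0 to 1 (Cd160) under median-of-ratios scaling and to 1 under quantile normalization, and in SP it ran from 0 to 1 when single libraries were left out. With ionomycin the count of 2 became 1 with a pseudocount of 0.1, 1 with no filter on low values, 0 with no variance trend and 0 with replicate 3 of both groups left out, a setting chosen after seeing the data, and ran from 0 to 3 when single libraries were left out. With the NKG2D pair the count of 1 ran from 1 to 2 when single libraries were left out. With the DNAM-1 pair it became 2 with the replicate block, and with ionomycin it became 3 with that block, which gave the reported count in each other comparison. Grouping by sample title gave 0 with the NKG2D pair and 0 with the DNAM-1 pair. The cause of these shifts was not tested, except that leaving libraries out also leaves fewer samples.

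Directions also reversed. Grouped by title, the log2 change with the NKG2D pair was -0.066 for Lag3, -1.30 for Lilrb4a ENSMUSG00000062593 and -0.13 for Cd200r1, the change with the DNAM-1 pair was 0.61 for Lilrb4a ENSMUSG00000112148 and 0.51 for Cd200r1, and the Lag3 difference between the pairs was 0.50. Cd200r1 with the DNAM-1 pair was 0.78 with a pseudocount of 0.1 and 0.028 under median-of-ratios scaling. With single libraries left out, the ionomycin change ran from -2.56 to 0.060 for Ctla4 and from -2.42 to 0.080 for Lilrb4a ENSMUSG00000112148. Cd200r1 ran from -0.50 to 0.96 with the NKG2D pair and from -0.77 to 0.69 with the DNAM-1 pair. With the DNAM-1 pair, Lilrb4a ENSMUSG00000112148 ran from -0.28 to 0.12 and Cd160 from -0.043 to 0.10. Lag3 between the pairs ran from -0.35 to 0.077, and the Cd160 interaction of genotype with SP against TP from -0.10 to 0.11. None of the reversed changes was called.

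Over all genes, the alternatives moved the number called by limma from 418 to between 0 and 477 with ionomycin, from 59 to between 0 and 257 with the NKG2D pair and from 107 to between 1 and 528 with the DNAM-1 pair. The replicate block gave 239 and 528 for the antibody pairs. KO against WT ran from 43 to 195 in TP (191 as reported), 68 to 178 in SP (162) and 12 to 113 in TN (86). TN against TP ran from 21 to 170 in WT (157) and 33 to 82 in KO (63), SP against TP from 8 to 27 in WT (23) and 15 to 41 in KO (24), and TN against SP from 2 to 57 in WT (46) and 1 to 9 in KO (5). The interactions ran from 0 to 10 (3) and 0 to 6 (2), and the DNAM-1 against the NKG2D pair from 0 to 4 (2). Depth is unknown, so values near 0 TPM cannot be told from absence.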
